A study of Mus musculus with 12 samples.

Results

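The glucocorticoid response genes described here are Fkbp5, Tsc22d3, Sgk1, Pdk4, Mt1, Mt2 and Zbtb16, transcripts that glucocorticoid raises in many tissues and that can serve as a readout of local steroid exposure. They were taken by gene symbol and not by a cut-off on their values, with earlier results of these data known. Each had 1 probe among the 25344 of the array, and all 7 were among the 21513 features tested. Adrenal glands of mice of 1 line transgenic for Ftz-F1 (Nr5a1 in current naming, the gene of the nuclear receptor SF-1), carried on a YAC (yeast artificial chromosome), were compared on 2-colour arrays with adrenals of wild-type littermates matched for sex and age. Each of the 6 pairs of littermates carries here the label number of its transgenic member, and each was measured on 2 arrays of opposite dye assignment, 12 arrays in all. At 10 days of age (pairs 11, 13 and 15) the transgenic mice were heterozygous, with 1 copy of the transgene. At 4 months (pairs 1, 3 and 5) they were homozygous, with 2 copies. The mice of pairs 15 and 5 were females, those of the remaining 4 pairs males. Age cannot be told apart from copy number, since both changed at once. Strain, feeding state, time of day and handling before the adrenals were taken are not stated in the labels.

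Glucocorticoids are made in the adrenal cortex, under the control of pituitary ACTH, by enzymes whose genes SF-1 activates. The steroid enters cells and binds the glucocorticoid receptor, which leaves a chaperone complex that holds Fkbp5 or its relative Fkbp4, moves to the nucleus and binds DNA at short palindromes. The adrenal cortex is thus both the source of the hormone and a tissue that carries its receptor. Several of the 7 genes also answer to other signals, the metallothioneins to zinc and cadmium and Pdk4 to fasting and fatty acids.

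Each value below is a log2 ratio of the 2 channels of an array after its dye trend was taken off, and a pair value is the mean of its 2 arrays. Both arrays of a pair were taken to run in the same direction, from correlations given with the dye exchange below, but the labels and files do not state which genotype is the numerator. A positive value therefore means more transcript in the transgenic mouse if that is the numerator, and more in the wild-type mouse otherwise. Tests were made with limma on the 6 pair values over all 21513 features, two-sided, with Benjamini-Hochberg adjustment and a threshold of 0.05.

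Promoter sequences were at hand for 6 of the 7 genes, as windows of 300 bases from RefSeq on build GRCm38.p6 that run from 250 bases before to 50 bases after a transcript start. Those of Sgk1, Mt1 and Mt2 are shown because they hold the letters that the glucocorticoid receptor or the metal-responsive factor Mtf1 is known to bind. Each is on the plus strand, 5′ to 3′, and is printed up to 30 bases past the start. Capitals in Sgk1 mark a full glucocorticoid response palindrome, and capitals in Mt1 and Mt2 mark the core of the metal response element (TGCACNC or TGCGCNC, on either strand).
Sgk1, chr10:21993640-21993919: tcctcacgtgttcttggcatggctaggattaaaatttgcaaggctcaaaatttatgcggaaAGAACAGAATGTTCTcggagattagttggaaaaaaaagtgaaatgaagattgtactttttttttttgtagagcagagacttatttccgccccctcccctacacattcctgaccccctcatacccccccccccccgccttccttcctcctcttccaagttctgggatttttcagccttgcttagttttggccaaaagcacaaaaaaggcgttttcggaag
Mt1, chr8:94178839-94179118: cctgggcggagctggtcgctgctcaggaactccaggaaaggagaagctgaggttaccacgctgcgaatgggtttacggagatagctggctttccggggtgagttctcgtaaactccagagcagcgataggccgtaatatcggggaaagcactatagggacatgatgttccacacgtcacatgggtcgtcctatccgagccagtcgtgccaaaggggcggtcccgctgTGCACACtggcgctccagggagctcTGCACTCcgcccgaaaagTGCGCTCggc
Mt2, chr8:94172368-94172647: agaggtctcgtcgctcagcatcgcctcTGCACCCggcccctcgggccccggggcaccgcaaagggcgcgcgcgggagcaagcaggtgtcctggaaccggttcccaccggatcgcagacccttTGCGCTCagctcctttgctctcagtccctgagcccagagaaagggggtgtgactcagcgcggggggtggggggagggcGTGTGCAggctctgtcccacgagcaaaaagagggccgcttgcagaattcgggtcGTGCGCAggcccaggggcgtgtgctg
Sgk1 has 6 windows of alternative starts, and this one held the full palindrome, with its first base at -189 from the start. The palindrome was found in 3 of the 32851 windows of the table, 0.00913%. It was not found in the other windows of these 6 genes. The shorter core of the palindrome, its inner bases on both sides of the spacer, was found in 6.85% of windows, among them the Mt1 window at -92 and another Sgk1 window at -127. Mt2 had 4 metal response cores, at -223, -128, -50 and 5, and 0.517% of windows had at least 4. Mt1 had 3, at -23, 3 and 21, and 1.97% of windows had at least 3. Mt2 and Mt1 are neighbours on chromosome 8, with transcript starts 6471 bases apart. A match of letters is a description of the window and does not show a bound site.

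On an array between 4.30% and 6.59% of spots had no value, and before correction the array medians lay at -0.68 to -0.22 where transgenic RNA carried Cy3 and at 0.74 to 1.50 where it carried Cy5. All arrays of 1 dye orientation also share a date in the descriptions, so dye and date cannot be told apart. The gene of the transgene itself, Nr5a1, had pair values of -0.57, -0.65 and -0.79 in pairs 11, 13 and 15 and of -0.46, 0.11 and -0.22 in pairs 1, 3 and 5. Its mean over all 6 pairs was -0.43 (SE 0.09, adjusted p = 0.104 in limma), and it was below 0 in 5 of 6 pairs. If the ratios are transgenic over wild type, this sign is opposite to that of added gene copies. It does not settle the direction. Which part of the transcript the probe covers is not stated in the labels or files.

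None of the 7 genes passed the test in any comparison. Over all 6 pairs, 12 of 21513 features passed (0.0558%). At 10 days, at 4 months and for the difference between the groups no feature passed, while 8.34%, 12.3% and 4.56% of features had an unadjusted p under 0.05. Over all 6 pairs 15% of features had an unadjusted p under 0.05, and 7.52% had one with a positive mean. Of the 7 genes, 2 did, Pdk4 and Fkbp5, both positive. At 10 days Pdk4 alone did, and at 4 months Fkbp5 alone. For the difference between the groups 0 of 7 did. The median of the 7 means over all pairs was 0.06, beside -0.01 for all features, and 4 of the 7 were positive, beside 47.1% of all features.

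**Figure D1:**
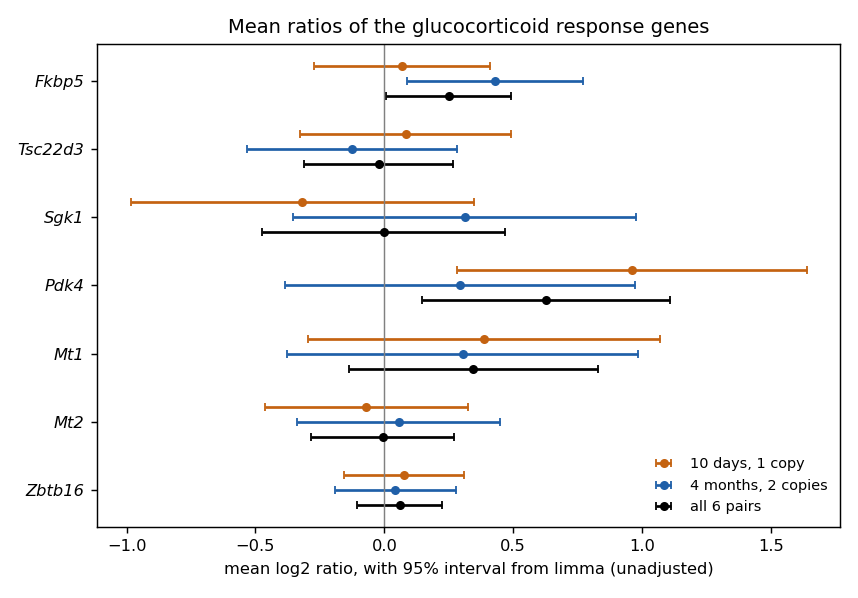
Mean log2 ratio of each of the 7 genes (x axis) at 10 days, at 4 months and over all 6 pairs, with the unadjusted 95% interval from limma as bars. The intervals of Pdk4 at 10 days and over all pairs and of Fkbp5 at 4 months and over all pairs lie above 0, and all others include 0.

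Pdk4 encodes a mitochondrial kinase that switches off pyruvate dehydrogenase and so spares glucose. Its pair values were 0.14, 0.86 and 1.88 in pairs 11, 13 and 15 and 0.75, 0.07 and 0.07 in pairs 1, 3 and 5. It was the only one of the 7 with a positive value in 6 of 6 pairs, and 5.37% of all features had that. On single arrays it was positive on 11 of 12, with the exception of the Cy3 array of pair 3 at -0.16. The 10-day mean was 0.96 ± 0.87 (SD, n = 3) and the 4-month mean 0.30 ± 0.40 (SD, n = 3), and the groups overlapped, as they did for each of the 7 genes (groups did not overlap for 9.84% of features). Over all pairs the mean was 0.63 (SE 0.21), with an adjusted p = 0.236 in limma (0.0168 before adjustment). At 10 days the unadjusted p was 0.0116 and the adjusted p 0.462 in limma. The 4-month mean was lower than the 10-day mean by 0.67, with an interval of the difference from -1.63 to 0.29 (adjusted p = 0.933 in limma). The size of the Pdk4 mean was above that of 99.1% of features over all pairs and of 99.8% at 10 days.

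Pair 15 held the highest Pdk4 value, 1.46 on the Cy3 array and 2.30 on the Cy5 array. In the same pair the adipocyte markers were high. All 7 tested markers of fat cells were positive there, with a median of 2.08, and the hormone gene Adipoq stood at 5.13. In the other 5 pairs the median of these markers lay between -0.23 and 0.26, with Pdk4 between 0.07 and 0.86. In bulk tissue fewer cells of a type and less RNA per cell cannot be told apart. Without pair 15 the Pdk4 mean over all pairs was 0.40 (adjusted p = 0.311 in limma) and the 10-day mean 0.50. Pairs 13 and 1 had Pdk4 at 0.86 and 0.75, and their adipocyte medians were 0.04 and -0.16. Single markers in pair 13 ran from -0.46 for Plin1 to 0.95 for Fabp4, with Adipoq at 0.71, and 4 of 7 were positive. In pair 1, 1 of 7 was positive. The part of fat cells in the Pdk4 mean was not tested further.

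Fkbp5 encodes the co-chaperone that lowers the affinity of the glucocorticoid receptor for its hormone, a feedback on the receptor. Its pair values were -0.17, 0.36 and 0.02 at 10 days and 0.16, 0.36 and 0.76 at 4 months. It was positive in 5 of 6 pairs and on 10 of 12 arrays, and pair 11 was the negative one, on both of its arrays. All 3 pairs at 4 months were positive, as were those of 17.3% of features. The 10-day mean was 0.07 ± 0.27 (SD, n = 3) and the 4-month mean 0.43 ± 0.31 (SD, n = 3), and the groups overlapped. The 4-month mean had an unadjusted p of 0.0204 and, after adjustment in limma, of 0.329, and the mean over all pairs, 0.25 (SE 0.10), had 0.0454 and 0.323. The difference between the groups was 0.36, with an interval from -0.12 to 0.85. Fkbp5 depended on the dye correction. With each array only centred on its median the mean over all pairs was 0.11, and the 10-day mean turned to -0.14.

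Fkbp5 and Pdk4, the 2 genes with the smallest p-values of the 7, had their highest values in different pairs. Pdk4 was highest in pair 15, where Fkbp5 stood at 0.02. Fkbp5 was highest in pair 5, where Pdk4 stood at 0.07. In pair 13 both were above their mean over all pairs, Pdk4 at 0.86 and Fkbp5 at 0.36. Across the 12 arrays their values correlated at -0.38.

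**Figure D2:**
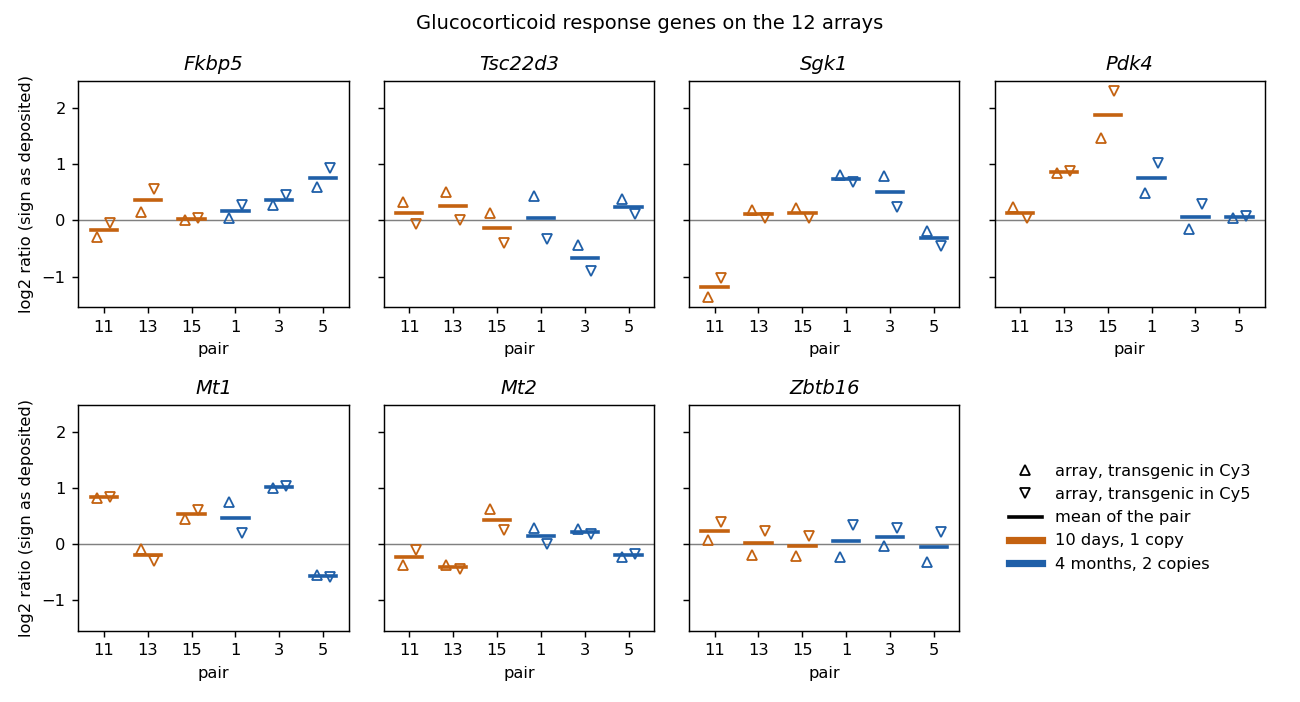
Log2 ratio of the 7 genes (y axis) in each of the 6 pairs (x axis), with triangles for single arrays, pointing up for the transgenic sample in Cy3 and down for Cy5, and bars for the pair mean, orange at 10 days and blue at 4 months. Pdk4 lies above 0 in every pair, with its highest value in pair 15, and Sgk1 has its lowest value in pair 11.

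Sgk1 encodes a kinase that raises sodium channel activity and is induced by both glucocorticoid and mineralocorticoid. Its pair values were -1.19, 0.11 and 0.12 at 10 days and 0.75, 0.51 and -0.32 at 4 months. Pair 11 was low on both of its arrays, at -1.36 and -1.02, and pairs 1 and 3 were high on both, at 0.23 or more. The means, -0.32 ± 0.75 (SD, n = 3) at 10 days and 0.31 ± 0.56 (SD, n = 3) at 4 months, had opposite signs, and the groups overlapped. Over all pairs the mean was -0.00 (SE 0.20, adjusted p = 0.998 in limma). The difference between the groups was 0.63, with an interval from -0.31 to 1.57 (adjusted p = 0.933 in limma). Without pair 11 the 10-day mean was 0.12 and the mean over all pairs 0.22.

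In pair 11 the hepatocyte markers were high. All 9 tested were positive there, with a median of 1.46 and the albumin gene Alb at 6.73, while in the other pairs the median lay between -0.00 and 0.22. Alb also stood at 1.70 in pair 13, where Sgk1 was 0.11. Cortex markers in pair 11 were all negative, 5 of 5 tested, with a median of -0.42. Their part in the Sgk1 value of pair 11 was not tested. Sgk1, the gene whose window printed above holds the full glucocorticoid palindrome, was positive in 4 of 6 pairs, as were Tsc22d3, Mt1 and Zbtb16.

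Tsc22d3, also called GILZ, encodes a leucine zipper protein that glucocorticoid induces strongly in lymphocytes and that restrains inflammatory transcription factors. Its pair values were 0.12, 0.26 and -0.14 at 10 days and 0.05, -0.67 and 0.24 at 4 months. Pair 3 was lowest, at -0.44 on the Cy3 array and -0.91 on the Cy5 array. The means were 0.08 ± 0.20 (SD, n = 3) and -0.13 ± 0.48 (SD, n = 3), and over all pairs -0.02 (SE 0.12, adjusted p = 0.954 in limma). The interval over all pairs ran from -0.31 to 0.27. Pair 3 was also the pair in which all 7 tested lymphocyte markers were negative, with a median of -2.70 and Cd79b, a part of the B cell receptor, at -5.18. In the other pairs the lymphocyte median lay between -0.07 and 0.10. All 6 macrophage markers were negative in pair 3, with a median of -1.80, and in pair 5, with a median of -0.69. Their median was -0.36 in pair 1 (5 markers measured) and -0.05, -0.26 and 0.51 in pairs 11, 13 and 15. Without pair 3 the Tsc22d3 mean was 0.15 at 4 months and 0.12 over all pairs. The part of lymphocytes and macrophages in the pair 3 value was not tested further.

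**Figure D3:**
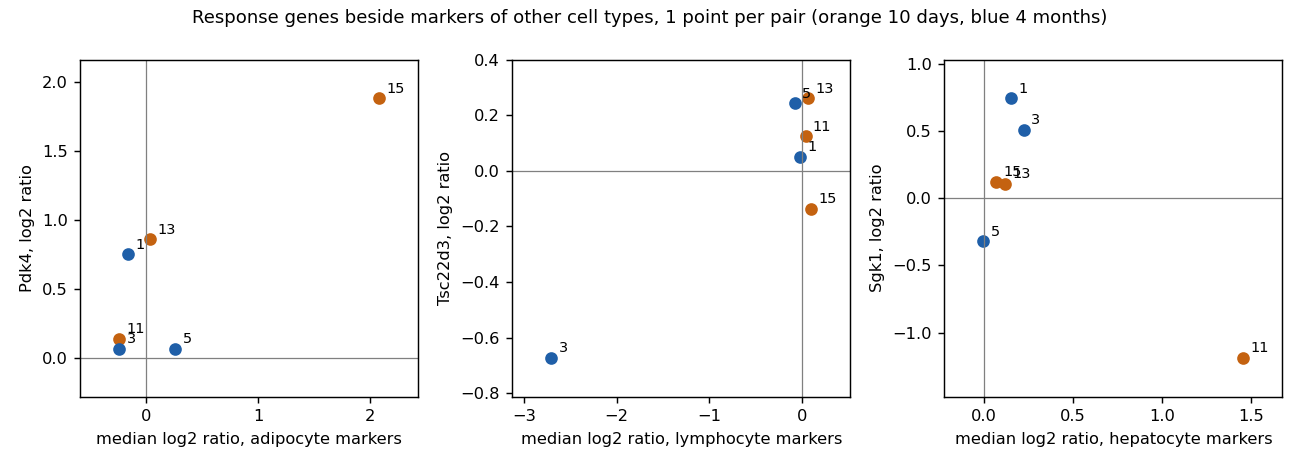
Pair values of Pdk4, Tsc22d3 and Sgk1 (y axes, log2 ratio) beside the median log2 ratio of the adipocyte, lymphocyte and hepatocyte markers (x axes), with 1 labelled point per pair, orange at 10 days and blue at 4 months. A single pair stands apart in each panel, pair 15 for adipocyte, pair 3 for lymphocyte and pair 11 for hepatocyte markers.

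Zbtb16, also called PLZF, encodes a zinc finger transcription repressor. It was the dimmest of the 7 probes, with a signal above that of 24.7% of probes, against 66.9% to 97.2% for the other 6. Its pair values were 0.24, 0.02 and -0.03 at 10 days and 0.05, 0.13 and -0.05 at 4 months, the narrowest range of the 7. Over all pairs the mean was 0.06 (SE 0.07, adjusted p = 0.741 in limma). This mean rests on arrays that disagreed in sign. The Cy5 arrays lay between 0.14 and 0.40 and the Cy3 arrays between -0.32 and 0.07, and only 1 pair had the same sign on both arrays. The interval of the mean, from -0.11 to 0.23, reflects the spread between pairs and not that offset between the dyes.

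Mt1 and Mt2 encode metallothioneins, small cysteine-rich proteins that bind zinc and copper, and both are induced by metals and by glucocorticoid. The pair values of Mt1 were 0.83, -0.20 and 0.53 at 10 days and 0.47, 1.01 and -0.57 at 4 months. Those of Mt2 were -0.23, -0.41 and 0.43 at 10 days and 0.14, 0.22 and -0.20 at 4 months. Both were negative in pairs 13 and 5 and positive in pairs 15, 1 and 3, and they differed in sign in pair 11. The means of Mt1 were 0.39 ± 0.53 (SD, n = 3) and 0.30 ± 0.81 (SD, n = 3), and over all pairs 0.35 (SE 0.21, adjusted p = 0.483 in limma). The means of Mt2 were -0.07 ± 0.44 (SD, n = 3) and 0.06 ± 0.22 (SD, n = 3), and over all pairs -0.01 (SE 0.12, adjusted p = 0.988 in limma). In pairs 11, 15 and 3 the median of hepatocyte, adipocyte or lymphocyte markers stood apart, upward in pairs 11 and 15 and downward in pair 3. Without these pairs the Mt1 mean over the remaining pairs was -0.10.

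The difference of Mt1 minus Mt2, a comparison chosen after their values were seen, was 1.06, 0.21 and 0.10 in pairs 11, 13 and 15 and 0.33, 0.79 and -0.37 in pairs 1, 3 and 5. It was positive in 5 of 6 pairs, with a mean of 0.35 ± 0.51 (SD, n = 6), and the exact two-sided sign-flip test gave p = 0.1875, where 0.03125 is the smallest p that 6 pairs allow. The Mt1 probe was among the brightest of the array, with a signal above 97.2% of probes, and that of Mt2 above 92.8%. The largest whole numbers recovered from their ratios were 18703 and 5455. Ratios give whole numbers only in lowest terms, so how near these spots lay to the limit of a scanner is not known. Probe sequences were not used here, so whether either probe also binds the transcript of the other is not known.

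The dye exchange gave each pair a second measurement of the same 2 RNAs. Once each orientation was centred probe by probe, the 2 arrays of a pair correlated over all probes at 0.23 to 0.66, and arrays of different pairs with opposite dyes at -0.28 to 0.12. Before that centring and the dye correction both ranges were negative, at -0.50 to -0.10 within pairs and -0.62 to -0.24 between pairs. Across the 6 pairs, the Cy3 and Cy5 values correlated at 0.96 for Sgk1, 0.94 for Fkbp5, 0.92 for Pdk4 and for Mt1, 0.89 for Tsc22d3, 0.86 for Mt2 and 0.66 for Zbtb16. The median over the 20356 features with a value in all 6 pairs was 0.35. The SD between pairs of Sgk1, Pdk4 and Mt1, at 0.69, 0.71 and 0.61, was above that of 96.8%, 97.1% and 95.5% of features. It was 3.66, 2.83 and 3.66 times the SD between the 2 arrays of a pair, taken after the mean gap between the orientations was removed. The median feature had a factor of 1.06. The factor was 3.95 for Fkbp5, 3.15 for Tsc22d3, 2.13 for Mt2 and 1.53 for Zbtb16. With the mean gap left in, the 2 arrays of a pair lay 0.33 to 0.56 apart for Zbtb16, beside an SD between pairs of 0.11. For Tsc22d3 they lay 0.26 to 0.78 apart, beside 0.35. Apart from that gap, the pair values of each of the 7 genes spread more widely than the repeat arrays did. Those repeat arrays share their RNA, so the spread between littermates in RNA preparation is part of the pair values.

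The orientations differed in level for some of the genes. Tsc22d3 was lower on the Cy5 array in 6 of 6 pairs, with means of 0.22 on Cy3 and -0.26 on Cy5 arrays, and its 2 arrays had the same sign in 3 of 6 pairs. Sgk1, Fkbp5 and Mt1 had the same sign on both arrays in 6 of 6 pairs, and Pdk4 and Mt2 in 5 of 6.

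**Figure D4:**
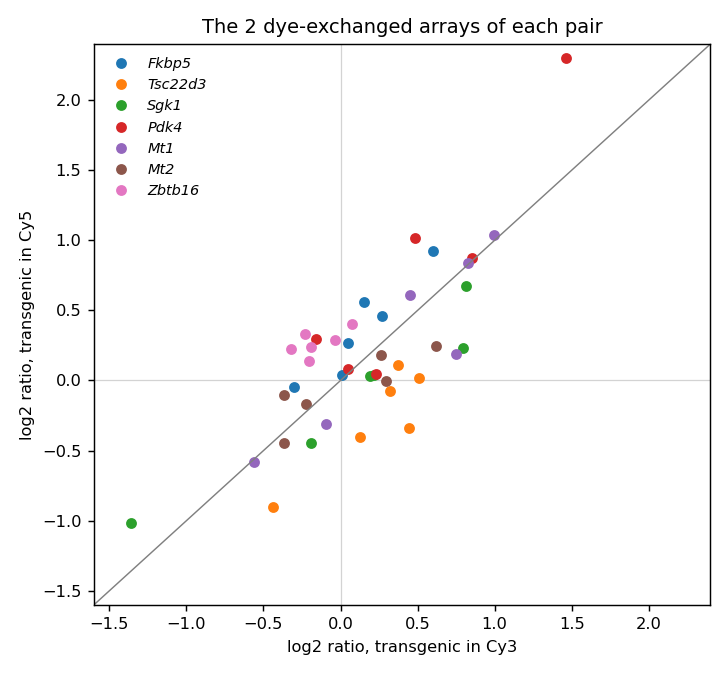
Log2 ratio of each gene in each pair on the array with the transgenic sample in Cy3 (x axis) and in Cy5 (y axis), with 1 point per gene and pair and the line of equal values. Most points follow the line, all 6 of Zbtb16 lie above it and all 6 of Tsc22d3 below it.

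The pattern across the pairs differed among the 7 genes. Across the 12 arrays, after the mean of each orientation was taken off, Mt1 and Mt2 correlated at 0.52, Sgk1 and Mt2 at 0.51 and Mt1 and Zbtb16 at 0.55. Fkbp5 and Mt1 ran opposite at -0.70, as did Tsc22d3 and Mt1 at -0.65 and Tsc22d3 and Mt2 at -0.57. Fkbp5 and Tsc22d3 correlated at 0.10. These values describe 12 arrays of 6 pairs, in which both arrays of a pair share their RNA. All 7 genes were positive in pair 1, 6 in pair 3 and 3 in pair 5, with medians of 0.16, 0.22 and -0.05. At 10 days 4, 5 and 5 of 7 were positive in pairs 11, 13 and 15, with medians of 0.12, 0.11 and 0.12.

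Females and males were compared with a sex term in the fit, over 2 female and 4 male pairs, and none of the 7 genes passed (0% of features did, and 5.76% had an unadjusted p under 0.05). The adjusted p in limma was lowest for Mt1, at 0.928, and highest for Sgk1, at 0.978. The female minus male difference of Mt1 was -0.55, with an interval from -1.54 to 0.44, and that of Pdk4 was 0.52, with an interval from -0.48 to 1.51. Both include changes of more than 1 on the log2 scale in at least one direction.

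Other genes known to be induced by glucocorticoid lay on both sides of 0. Of 24 listed, 22 were tested and 0 passed, 9 had a positive and 13 a negative mean over all pairs, and their median was -0.10, beside -0.01 for all features. The most positive were Fam107a at 0.31, positive in 6 of 6 pairs, the haemoglobin scavenger receptor gene Cd163 at 0.16 and Pck1, an enzyme of glucose synthesis, at 0.15. The most negative were the repressor gene Bcl6 at -0.80 (adjusted p = 0.104 in limma), the transcription factor gene Cebpb at -0.65 and the lipid droplet gene Plin4 at -0.33. Bcl6 was negative in 5 of 6 pairs, from -0.39 to -1.94, and 0.48 in pair 11. Pck1, which fat cells also express, rested on pair 15 at 1.78, and its mean without that pair was -0.19. The median of the list was -0.03 at 10 days and -0.16 at 4 months.

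Genes of the receptor, its chaperones and steroid access centred near 0. Of 16 listed, 14 were tested and 0 passed, 5 were positive, and the median was -0.01. The receptor gene Nr3c1 had a mean of -0.02 over all pairs, which was 0.05 with arrays only centred on their medians, with 0.26, 0.31 and -0.00 in the 10-day pairs and -0.23, -0.23 and -0.22 in the 4-month pairs. The 10-day mean was 0.19 (adjusted p = 0.691 in limma) and the 4-month mean -0.22 (adjusted p = 0.425 in limma). The Nr3c1 probe was dim, with a signal of 88.9 beside 173 for Zbtb16, and its mean was -0.24 on Cy3 and 0.21 on Cy5 arrays. The most positive was the chaperone gene Hspa8 at 0.46, with 1.16 on Cy3 and -0.25 on Cy5 arrays. Its value was 1.91 in pair 11, and its mean was -0.28 without pairs 11, 15 and 3. Its Cy3 arrays reached 4.22 and its Cy5 arrays at most 0.52, so the 2 arrays of pair 11 lay far apart. Hspa8 was followed by the gene of the corticosteroid carrier of blood, Serpina6, at 0.42 and Hsd11b1, whose enzyme regenerates active glucocorticoid, at 0.16. Serpina6, a liver product, stood at 1.75 in pair 11 and between 0.07 and 0.24 elsewhere. The most negative were the steroid efflux pump gene Abcb1b at -0.57, Fkbp4 at -0.29 and the coactivator gene Ncoa1 at -0.21.

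Genes of corticosteroid synthesis held wide ranges between pairs. Of 15 listed, 11 were tested and 0 passed, 4 were positive, and the median was -0.05. Cyp21a1, the steroid 21-hydroxylase, had pair values of -3.18, -3.96 and 0.25 at 10 days and of -1.41, 1.64 and 0.75 at 4 months. Star, which carries cholesterol into mitochondria, had a mean of 0.03, which was -0.06 with arrays only centred on their medians, with pair values from -2.04 in pair 5 to 1.48 in pair 1, and its mean was 1.73 on Cy3 and -1.67 on Cy5 arrays. The means of Fdx1, Cyp11a1 and Scarb1, which supply electrons, side-chain cleavage and cholesterol uptake, were 0.38, 0.38 and 0.18. In the same order they were 0.91, 0.58 and 0.39 on Cy3 arrays and -0.15, 0.19 and -0.02 on Cy5 arrays. The mean of Nr0b1, a nuclear receptor that restrains SF-1, was -0.40. Cyp11b1, the enzyme of the last step to corticosterone, was not analysed here. No measurement of corticosterone was used.

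Genes that answer to metals and oxidative stress, signals that the metallothioneins share, had a median of 0.04, with 9 of 9 tested, 7 positive and 0 past the threshold. The metallothionein genes Mt3 and Mt4 stood at 0.11 and 0.43, and Mt4 was positive in 6 of 6 pairs. The zinc exporter gene Slc30a1 stood at 0.04 and Mtf1, the gene of the metal-responsive factor, at 0.00. Close relatives of the 7 genes, 15 of 15 tested, had a median of -0.08 with 5 positive and 0 past the threshold. Among them were Sgk2 at -0.37 and Tsc22d1 at -0.38, both negative in 6 of 6 pairs, as were 4.49% of features. The Sgk2 probe was dim, with a signal of 171 beside 173 for Zbtb16. Genes of fasting and fatty acid response, which share signals with Pdk4, had a median of -0.04, with 8 of 10 tested, 4 positive and 0 past the threshold.

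**Figure D5:**
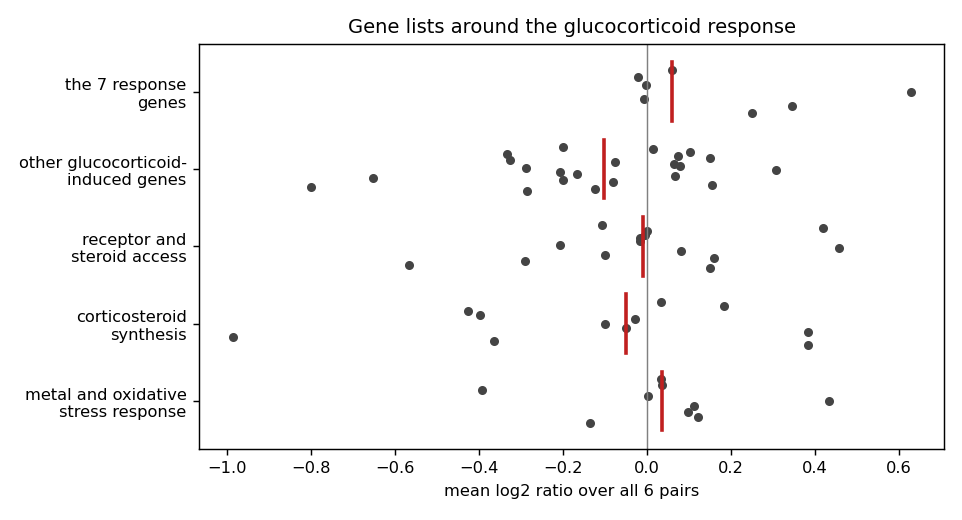
Mean log2 ratio over all 6 pairs (x axis) of each tested gene in 5 lists (y axis), with 1 point per gene and a red line at the median of the list. The medians lie between -0.10 and 0.06, and single genes reach from -0.99 to 0.63.

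The genes whose pattern was most like that of each response gene over the 12 arrays were sought among 17047 named genes with a value on all arrays. For Tsc22d3 the first was Cd8b1, a chain of the T cell co-receptor CD8, with r = 0.94, which stood at -2.67 in pair 3 and between -0.39 and 0.09 elsewhere. Klk1b11 and Trim59 followed at 0.94 and 0.93. For Pdk4 they were Cox20, the Fc receptor gene Fcgr3 and Aoc3, a surface amine oxidase of fat and vessels, at 0.93, 0.93 and 0.92, and Aoc3 was 1.25 in pair 15 and at most 0.02 elsewhere. For Sgk1 they were Hspa5, the main chaperone of the endoplasmic reticulum, Wsb1 and Tram1, a part of its protein translocation site, at 0.96, 0.96 and 0.95.

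For Fkbp5 the most alike genes were Matn2, Snx27 and Rap1gap, at 0.93, 0.93 and 0.90. For Mt2 the first was Ddc, the decarboxylase of catecholamine synthesis in chromaffin cells, at 0.92, followed by Akr1cl and 4930583P06Rik, both at 0.90. For Mt1 they were Txndc17, B3galt1 and Olfr1166, each at 0.91. For Zbtb16 they were the proteasome activator gene Psme1 at 0.96, Haghl at 0.93 and 2010308F09Rik at 0.90. No gene was among the 3 most alike of more than 1 of the 7. These values of r are a description over 12 arrays of 6 pairs, picked as the highest of many.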

How the data were processed

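The data are adrenal 2-colour arrays of 6 transgenic and wild-type littermate pairs. As deposited, the table holds a log2 ratio of both channels for each of 25344 probes on 12 arrays: judged from the values, 2 raised to each was a ratio of whole numbers of at most 65535 on the 6 arrays stored at full precision. No label or file header states the scanner, image analysis, background correction or normalization. Precision is limited by how few arrays there are. Samples were grouped by their labels, and no array column was left unused (0).

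The deposited ratios were not centred and followed dye and signal, so a loess fit (span 0.3) on probe signal was subtracted from each array. Signal was the 75th percentile, over those 6 arrays, of the geometric mean of the recovered whole numbers, which are in lowest terms. Probes were named by the platform's annotation table (21082 with 1 gene, 30 with several, 4232 with none), probes of a gene were averaged, then the 2 arrays of a pair. A feature needed a value in at least 2 pairs of each group. limma 3.58.1 under R 4.3.3 fitted a mean per group, with 4 residual and 3.85 prior degrees of freedom, with Benjamini-Hochberg adjustment over all features.

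On simulated data with known changes, the fit over all 6 pairs returned mean changes close to those put in. The noise added was centred, so this was a check of the computation and gives no measure of power. The genes and lists were chosen with earlier results of these data known. Within the lists of other glucocorticoid-induced, receptor and synthesis genes, the 3 most positive and 3 most negative means were named, with Nr5a1, Nr3c1 and Star. Motif patterns were typed in by hand as search settings, and the printed sequences were read from the RefSeq table. For likeness, the 3 highest correlations over 12 arrays were named. Other genes given by value (Mt3, Mt4, Slc30a1, Mtf1, Sgk2, Tsc22d1 and single markers) were chosen after their values were seen. Skeletal muscle, kidney tubule, chromaffin and erythroid markers were also checked, and their medians stand in the closing section. Alternatives were median centring, loess span 0.5, single dye orientations, complete features, no dim probes, an ordinary linear model, a sex term and leaving out pairs.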

Additional observations from a re-analysis of the deposited data

Results flagged for a closer look

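Over the 6 pairs, 65 sets of pair values were checked for a single pair standing apart from the other 5 by Dixon's test at the 95% level, which chance alone meets in about 1 of 20 sets. None of the 7 response genes had such a pair. In 10 sets a single pair stood apart. Among the marker lists these were the median of hepatocyte markers in pair 11 (1.46), of adipocyte markers in pair 15 (2.08) and of lymphocyte markers in pair 3 (-2.70). Among other named genes they were Pck1 in pair 15 (1.78), Serpina6 in pair 11 (1.75), Ncoa1 in pair 11 (-1.08), Fkbp4 in pair 1 (-0.93), Plin4 in pair 5 (-1.02), and, in pair 3, Cd8b1 (-2.67) and Klk1b11 (-0.61), both among the genes most like Tsc22d3.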

How the results depend on the processing

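Of the 7 response genes, 0 passed the threshold over all pairs, at 10 days, at 4 months, for the difference between the groups or between the sexes, under every alternative run for each. For the sexes these were median centring, loess span 0.5, single dye orientations and the ordinary linear model. Over all pairs, 0 of 21513 features passed with median centring, 1411 of 21845 on Cy3 arrays alone and 3439 of 21610 on Cy5 arrays alone. In a fit on 1 orientation the offset between the dyes is not averaged out and cannot be told apart from genotype. Where no feature passed, the count for the 7 genes was fixed at 0. The mean of Pdk4 kept its sign in all alternatives and ranged from 0.40 to 0.83 over all pairs, with adjusted p in limma or the ordinary linear model from 0.0719 to 0.455. That of Fkbp5 ranged from 0.11 to 0.43, with adjusted p from 0.0757 to 0.708. For both genes the lowest adjusted p came from the fit on Cy5 arrays alone, which carries the dye offset. With arrays only centred on their medians, the sign turned for Fkbp5 (-0.14) and Tsc22d3 (-0.084) at 10 days, Mt2 at 4 months (-0.033), the group difference of Mt1 (0.063), and, over all pairs, Nr3c1 (0.047) and Star (-0.064). On Cy3 arrays alone it turned over all pairs for Tsc22d3 (0.22), Sgk1 (0.076), Mt2 (0.036), Zbtb16 (-0.15), Cd163 (-0.069) and Hsd11b1 (-0.068), at 10 days for Fkbp5 (-0.046) and Zbtb16 (-0.11), at 4 months for Tsc22d3 (0.13) and Zbtb16 (-0.20) and for the group difference of Mt1 (0.0016). On Cy5 arrays alone it turned for Tsc22d3 at 10 days (-0.15), the group difference of Zbtb16 (0.022) and, over all pairs, Hspa8 (-0.25), Fdx1 (-0.15), Scarb1 (-0.022), Nr3c1 (0.21) and Star (-1.67). With a sex term, Mt2 stood at 0.024 and Star at -0.21. Without pairs 11, 15 and 3, Tsc22d3 stood at 0.19, Sgk1 at 0.18, Mt1 at -0.10, Cd163 at -0.11, Pck1 at -0.11, Hspa8 at -0.28 and Star at -0.13. The cause of these turns was not tested.

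Leaving out each pair in turn gave, over all pairs, -0.11 to 0.22 for Sgk1, -0.13 to 0.077 for Mt2, -0.11 to 0.12 for Tsc22d3, -0.31 to 0.57 for Star, -0.034 to 0.29 for Cd163, -0.19 to 0.32 for Pck1 and -0.048 to 0.031 for Nr3c1. At 10 days it gave -0.54 to 0.12 for Sgk1, -0.32 to 0.099 for Mt2, -0.0040 to 0.13 for Zbtb16, -0.075 to 0.19 for Fkbp5 and -0.0057 to 0.19 for Tsc22d3. At 4 months it gave -0.31 to 0.15 for Tsc22d3, -0.051 to 0.74 for Mt1 and -0.028 to 0.18 for Mt2. For the group difference it gave -0.44 to 0.36 for Mt1, -0.087 to 0.047 for Zbtb16, -0.043 to 0.38 for Mt2 and -0.39 to 0.064 for Tsc22d3. The exact p of Mt1 minus Mt2 ranged from 0.0625 without pair 5 to 0.375. The median of the 7 means, 0.06, was 0.034 with a sex term, 0.11 with median centring, 0.13 on Cy3 and 0.27 on Cy5 arrays, 0.057 to 0.22 when a pair was left out and 0.18 without pairs 11, 15 and 3. No paired analysis was possible because the groups compared share no replicate number, and each value already compares a pair of littermates.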

Other observations

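The other marker lists are given here beside the response genes. Chromaffin cell markers, 6 tested, had medians of -0.04, 0.55 and 0.80 in pairs 11, 13 and 15 and of 0.15, 0.67 and 0.75 in pairs 1, 3 and 5. These markers did not move together, with 4 positive and 2 negative means over all pairs. The negative ones were Chga at -0.17 and Chgb at -0.02. Beside Pnmt, Npy stood at 1.12 and was positive in 6 of 6 pairs (adjusted p = 0.0875 in limma). Th stood at 0.79, positive in 5 of 6 pairs, and Dbh at 0.23, positive in 4 of 6. Pnmt, the adrenaline-forming enzyme, which glucocorticoid from the cortex is known to induce in these cells, was positive in 6 of 6 pairs, as were 5.37% of features. It stood at 0.75, 1.15 and 1.31 in pairs 11, 13 and 15 and at 0.56, 1.35 and 1.77 in pairs 1, 3 and 5. Its mean over all pairs was 1.15 (adjusted p = 0.0654 in limma). Erythroid markers, 5 tested, had medians from -1.28 in pair 13 to 0.62 in pair 15. Skeletal muscle and kidney tubule markers, 6 tested each, had medians between -0.09 and 0.10 and between -0.03 and 0.22. Macrophage markers, 6 tested and 0 past the threshold, had a median of 0.03 at 10 days and of -1.35 at 4 months, where all 6 were negative and 5 had an unadjusted p under 0.05 in limma. For the difference between the groups their median was -1.47.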
